A study of Mus musculus with 5 samples.

Results

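The cells described here are the Foxp3-positive cells of the naive spleen library, a group selected on the gene's own transcripts: a cell belongs to it when it holds 1 or more unique molecular identifiers (UMIs, each marking 1 captured transcript) of Foxp3. They number 72 of the 7955 cells of that library, 0.905%, and the series holds 20149 cells in 5 libraries. Foxp3 encodes the forkhead transcription factor that defines regulatory T cells (Tregs). Because Foxp3 chose the cells, its level is given only as a description, and every comparison concerns other genes.

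All 5 libraries hold SMARTA cells, CD4 T cells whose receptor is a transgene that recognises a viral peptide. They were sorted as CD4+CD45.1+ and profiled with a droplet assay of transcript 3′ ends, with C57BL/6 given as the genotype in each case. The naive cells came from the spleen and had no treatment. The other 4 libraries came from the inguinal tumor lymph node at day 8 after tumor cells were placed in the mammary fat pad: 1 without treatment, 1 with anti-CTLA4 antibody at days 0, 2 and 5, 1 with Tregs depleted by diphtheria toxin at days 0 and 2 (the toxin library), and 1 with both (the toxin plus antibody library). The growth protocol names MC38 as the tumor line and the treatment protocol PyMG, and the allele that makes Tregs sensitive to the toxin is not given in the sources used here. Each group is 1 library, and how many mice went into a library is not stated. The naive and the toxin libraries differ in organ, tumor, toxin and library at once, so the parts of these in any difference between them cannot be told apart.

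Tregs restrain other T cells and are held in place by Foxp3 together with IL-2, which they sense through a receptor whose alpha chain (CD25, the product of Il2ra) they carry at high density. Resting or central Tregs recirculate through lymphoid organs with homing receptors such as CCR7, whereas effector Tregs lose them and gain activation, adhesion and tissue-homing molecules such as KLRG1, ICOS and chemokine receptors. When Tregs are depleted, Foxp3-expressing cells that escape or newly arise can divide and expand. The comparisons below ask how far the Foxp3-positive cells of the unchallenged spleen carry each of these programs, first against Foxp3-zero cells of the same library and then against Foxp3-positive cells of the toxin libraries.

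Depth was even within the naive library and uneven across libraries. The 72 cells held 143591 UMIs with a median of 1895.5 per cell (range 1133 to 3346), and the 7883 Foxp3-zero cells a median of 1682 (range 445 to 3664). Median depth was 5208.5 UMIs in the toxin library and 2468 in the toxin plus antibody library, and single cells outside the naive library reached 46116. Levels are in CPM, the UMIs of a gene summed over a group and scaled by the group's total. In the 72 cells 1 UMI is worth 6.96 CPM and the floor of 3 UMIs is 20.9 CPM. With 1 library a group there is no test. Ratios of CPM carry exact 95% binomial intervals, and shares of cells exact Clopper-Pearson intervals, which cover counting error only. Shares and genes per cell were also computed after each cell was thinned to 1000 random UMIs, leaving shallower cells out. The naive library shared between 3 and 10 cell barcodes with each other library, and none of these belonged to the 72 cells.

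Foxp3 transcripts were sparse in the chosen cells. Of the 72 cells, 52 held 1 Foxp3 UMI, 8 held 2, 9 held 3, 2 held 4 and 1 held 10, which sums to 113 UMIs or 787 CPM. Most members therefore sit just inside the threshold, and the 7883 cells just outside it hold 0. Among the 33 naive cells with 3 or more marker genes of other cell types, which should lack the gene, 0 held a Foxp3 UMI, which by the floor of 3 counts allows a share of cells with a UMI of up to 9.09%. The same rule took 1284 of 2186 cells (58.7%) in the toxin library and 1649 of 4343 (38%) in the toxin plus antibody library, but 16 of 1099 (1.46%) in the untreated tumor library and 54 of 4566 (1.18%) in the antibody library.

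The label of a Treg was checked with Il2ra and Ikzf2, which encodes Helios, a transcription factor of the Ikaros family abundant in thymus-derived Tregs. Il2ra was seen in 16 of the 72 cells (22.2%, interval 13.3% to 33.6%) against 1.26% of the Foxp3-zero cells, and in 1 of the 33 cells with other markers. Ikzf2 was seen in 38 of the 72 cells (52.8%) against 4.50% of the Foxp3-zero cells. Its share among the 33 cells with other markers was 21.2%, at a median depth of 2089 UMIs, which is above the Foxp3-zero share and below that of the 72 cells. After thinning to 1000 UMIs, Il2ra was present in 15.3% of the 72 cells and 0.851% of the Foxp3-zero cells, and Ikzf2 in 48.6% and 3.11%. As levels, Il2ra stood at 223 CPM in the 72 cells and 8.00 CPM in the Foxp3-zero cells (27.9-fold, 18.2 to 41.6), and Ikzf2 at 1887 and 65.1 CPM (29.0-fold, 25.2 to 33.2).

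The share with a marker differed by Foxp3 count. All 20 cells with 2 or more Foxp3 UMIs also held a UMI of Il2ra or Ikzf2 (interval 83.2% to 100%). Of the 52 cells with a single Foxp3 UMI, 21 did (40.4%, 27.0% to 54.9%), and 31 held neither. In the toxin library the share at a single Foxp3 UMI was 95% (90.7% to 97.7%) of 179 cells, and in the toxin plus antibody library 94.0% (91.3% to 96.1%) of 417 cells. At 0 Foxp3 UMIs the share was 5.57% in the naive library. It was 59.6% in the toxin library and 72.8% in the toxin plus antibody library. The cells with 1 Foxp3 UMI were deeper there, with medians of 4174 and 2807 UMIs against 1778 in the naive library. The 41 cells with a Foxp3 UMI and a marker UMI (13 with both markers, 25 with Ikzf2 alone, 3 with Il2ra alone) are called marker-holding below, and the other 31 marker-free. Their median depths were 2079 and 1735 UMIs.

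**Figure D1:**
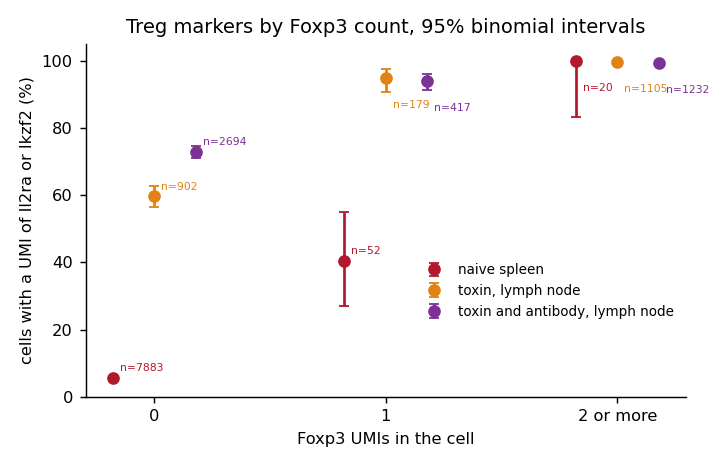
Share of cells (percent, y axis) with a UMI of Il2ra or Ikzf2 by the number of Foxp3 UMIs in the cell (x axis), in the naive, toxin and toxin plus antibody libraries, with exact 95% Clopper-Pearson intervals as bars. Among naive cells the share goes from 5.57% at 0 Foxp3 UMIs to 40.4% at 1 and 100% at 2 or more. In the toxin and the toxin plus antibody library it is 59.6% and 72.8% at 0 and above 90% at 1.

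Genes that did not define the split differed across it as well. Of 22 Treg signature genes other than Foxp3, Il2ra and Ikzf2 (such as Ctla4, Tnfrsf4, Tnfrsf18, Il2rb and Nrp1), the marker-holding cells held a median of 7 (range 2 to 13), and 37 of 41 held at least 4. The marker-free cells held a median of 1 (range 0 to 3), and 0 of 31 held 4. Foxp3-zero naive cells also held a median of 1, with 2.26% at 4 or more. The 439 Foxp3-zero cells that held Il2ra or Ikzf2 held a median of 1, with 14.4% at 4 or more. So a marker without Foxp3 went with fewer of these genes than a marker together with Foxp3. After thinning, the medians were 4 in the marker-holding and 0 in the marker-free cells.

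**Figure D2:**
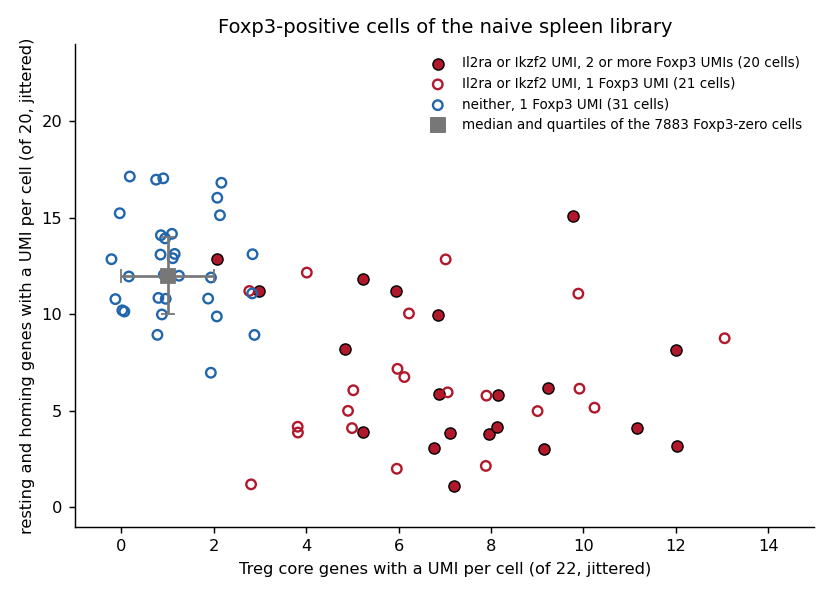
Each circle is 1 of the 72 naive Foxp3-positive cells, by the number of Treg signature (core) genes with a UMI (x axis, of 22, without Il2ra and Ikzf2) and of resting and homing genes (y axis, of 20), unthinned and jittered; color gives the marker, fill the Foxp3 count, and the grey square the median and quartiles of the Foxp3-zero cells. Marker-holding cells have medians of 7 and 6, and marker-free cells medians of 1 and 12 lie around the square.

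The 300-base promoter windows of 4 genes described here are shown because Foxp3 defines the group and the other 3, which were higher in it, also hold the letters of a STAT element, the site class through which IL-2 signals act. The windows are from RefSeq on GRCm38.p6, around a transcript start and mostly upstream of it, and are written 5′ to 3′ on the gene's strand. Capitals mark matches to TTCNNNGAA (STAT) or TGANTCA (AP-1, the Fos and Jun site), searched on both strands.
Foxp3, chrX:7580233-7580532, plus strand: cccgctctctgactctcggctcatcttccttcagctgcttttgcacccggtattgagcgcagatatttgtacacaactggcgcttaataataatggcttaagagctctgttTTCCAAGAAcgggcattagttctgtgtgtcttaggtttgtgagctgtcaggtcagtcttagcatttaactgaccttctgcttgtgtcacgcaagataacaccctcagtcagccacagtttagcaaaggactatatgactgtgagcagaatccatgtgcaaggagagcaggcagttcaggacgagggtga
Tnfrsf18, chr4:156026072-156026371, plus strand: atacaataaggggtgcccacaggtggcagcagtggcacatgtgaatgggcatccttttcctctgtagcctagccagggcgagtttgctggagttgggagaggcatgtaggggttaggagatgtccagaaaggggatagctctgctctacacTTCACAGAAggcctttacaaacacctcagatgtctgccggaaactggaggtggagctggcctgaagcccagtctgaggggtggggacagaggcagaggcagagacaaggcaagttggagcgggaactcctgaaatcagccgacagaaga
Tnfrsf9, chr4:150927749-150928048, plus strand: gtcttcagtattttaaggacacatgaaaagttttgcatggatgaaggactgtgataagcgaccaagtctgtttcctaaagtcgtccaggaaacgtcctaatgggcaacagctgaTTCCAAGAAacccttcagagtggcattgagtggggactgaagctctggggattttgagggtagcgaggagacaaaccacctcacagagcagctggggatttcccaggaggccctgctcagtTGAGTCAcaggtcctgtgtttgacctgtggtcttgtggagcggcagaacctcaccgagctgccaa
Gzmb, chr14:56262285-56262584, minus strand: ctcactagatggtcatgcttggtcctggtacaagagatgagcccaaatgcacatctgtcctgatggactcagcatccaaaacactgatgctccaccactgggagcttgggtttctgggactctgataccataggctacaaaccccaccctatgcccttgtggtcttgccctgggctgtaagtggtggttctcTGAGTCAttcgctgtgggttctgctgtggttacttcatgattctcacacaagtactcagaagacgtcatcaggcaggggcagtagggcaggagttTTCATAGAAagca
The Foxp3 and Tnfrsf18 windows shown hold 1 STAT match each, and the Tnfrsf9 and Gzmb windows shown hold 1 STAT and 1 AP-1 match each. Another window of Foxp3 (chrX:7579426-7579725) and another of Tnfrsf9 (chr4:150919905-150920204) hold none of the 3 motifs, and the windows of Pim1 hold no STAT match. The STAT letters occur in 8.3% of all 32851 windows, in 6.5% of those of the genes compared between the 72 cells and the Foxp3-zero cells, and in 7.1% of those of the genes at least 2-fold higher. The AP-1 letters occur in 7.8%, 4.4% and 12.1%, and a forkhead element (TGTTTAC) in 3.6%, 2.8% and 1.4%. A match is a description of letters, not a site of binding, and the windows of Il2ra, Ctla4 and Tnfrsf4 held none of the 3 motifs.

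Against the Foxp3-zero cells of the same library, the 72 cells were higher in the receptors, costimulatory molecules and adhesion genes of Tregs and lower in genes of naive T cells. Of 3832 genes with an expected count of at least 10 UMIs in the smaller group, 138 were at least 2-fold higher (3.6%) and 82 lower by as much (2.14%). Scaling by trimmed mean factors (TMM), which moves every log2 ratio by -0.16, gave 115 higher and 146 lower over the same genes. Genes almost silent in Foxp3-zero cells pass that filter only if they are high in the 72 cells, so gene lists are counted below over every listed member, with or without enough UMIs. Of the 24 listed Treg signature genes, 13 passed the filter. Over all 24, 21 were at least 2-fold higher with an interval above 1, none was lower, and Gpr83, Plagl1 and Tigit were neither. Counted the same way, with no minimum, 4.43% of 11669 genes with a UMI were higher and 1.46% lower. The lists were drawn up from earlier knowledge of Tregs and of these data, so their direction is not independent evidence.

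Among the inhibitory and costimulatory receptors, Ctla4, which encodes the receptor that competes with CD28 for its ligands, stood at 279 CPM in the 72 cells and 4.99 CPM in the Foxp3-zero cells (55.8-fold, 36.8 to 83.7). It was seen in 20 of the 72 cells (27.8%), and in 0.761% of the others. After thinning these shares were 16.7% and 0.335%. Costimulatory receptors of the TNF family were higher too. Tnfrsf4 (OX40) stood at 731 against 15.8 CPM (46.3-fold, 36.3 to 58.8), Tnfrsf18 (GITR) at 745 against 124 CPM (5.99-fold, 4.88 to 7.28) and Tnfrsf9 (4-1BB) at 118 against 22.2 CPM (5.32-fold, 3.06 to 8.67). Icos, a costimulator of effector Tregs, was 5.41-fold higher (4.12 to 6.99). Thus GITR, which Foxp3-zero cells also carried at 124 CPM, differed less than OX40, which they nearly lacked.

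Among the receptors for IL-2, Il2rb, the beta chain, stood at 286 against 18.1 CPM (15.8-fold, 11.1 to 22.1), beside the alpha chain described above. Pim1, a kinase gene induced by STAT5, stood at 1337 against 256 CPM (5.23-fold, 4.50 to 6.05). Socs1, a feedback inhibitor of cytokine signalling, was 2.49-fold higher (1.68 to 3.58). Of the 11 listed genes of the IL-2 and STAT5 pathway, 3 (Cish, Socs1 and Pim1) were at least 2-fold higher with an interval above 1 and none was lower, beside 4.43% and 1.46% of all genes. Stat5a, at 83.6 against 57.6 CPM, had an interval that included 1. Il7r, the IL-7 receptor alpha chain that is often low on Tregs, was at 689 against 596 CPM, and its interval also included 1.

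Surface and secreted regulators were present in few cells each. Nt5e, which encodes the ectoenzyme CD73 that makes adenosine, was 32.7-fold higher (18.9 to 54.4), from 21 UMIs in 12 cells. Nrp1 (neuropilin-1, a marker of thymus-derived Tregs) was 17.8-fold higher (11 to 27.7), from 24 UMIs in 14 cells. Izumo1r (folate receptor 4) was at 1205 against 254 CPM (4.74-fold, 4.04 to 5.52), and Capg, an actin-capping protein, 8.49-fold higher (6.77 to 10.5). Lrrc32, which encodes GARP, the anchor of latent TGF-beta, had 9 UMIs in 7 cells against 5 UMIs in all Foxp3-zero cells. Itgae, the alpha chain of the CD103 integrin, had 10 UMIs, 6 of them in 1 cell. The secreted inhibitor Il10 had 2 UMIs in the 72 cells and 0 in the Foxp3-zero cells, too few for a fold.

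Most effector Treg genes were higher as well. Of 30 listed, 15 passed the filter. Over all 30, 24 were at least 2-fold higher with an interval above 1 and none was lower. Klrg1, a lectin-like inhibitory receptor of terminally differentiated T cells, stood at 306 against 3.23 CPM (94.9-fold, 61.0 to 147), with 44 UMIs in 14 cells. Ccr2, a chemokine receptor for entry into tissues, stood at 306 against 10.6 CPM (28.8-fold, 20.1 to 40.6), with 44 UMIs in 11 cells. S100a6, a calcium-binding protein of effector and memory cells, was at 1630 against 104 CPM (15.6-fold, 13.5 to 18). Maf, a transcription factor of effector Tregs, was at 613 against 47.0 CPM (13.1-fold, 10.3 to 16.3). Cd44, the hyaluronan receptor that marks activated T cells, was at 118 against 41.4 CPM (2.86-fold, 1.65 to 4.62).

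The highest ratio belonged to Penk and rested on few cells. Penk, which encodes the opioid precursor proenkephalin, had 40 UMIs in 4 of the 72 cells, 20 of them in 1 cell, against 5 UMIs in the 7883 others (759-fold, 300 to 2464). Gzmb, the cytotoxic protease granzyme B, had 22 UMIs in 6 cells, 12 of them in 1 cell (94.9-fold, 50.1 to 180). Their intervals treat UMIs as independent and do not cover this unevenness between cells.

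Some genes of resting and recirculating T cells were lower in the 72 cells. Of 20 listed, all passed the filter and 6 were at least 2-fold lower with an interval below 1, among them Dapl1, Bach2, Tcf7, Actn1 and Ly6c1, none was higher, and 14 were neither. The list's median log2 ratio was -0.65, beside -0.03 over all genes compared. Tcf7, which encodes the T cell factor TCF-1, stood at 585 against 1259 CPM (2.15-fold lower, 1.74 to 2.70). Ccr7 was 1.52-fold lower (1.22 to 1.92). Klf2, the factor that drives exit from lymphoid organs, was 1.24-fold lower (1.10 to 1.40). Cd4 stood at 439 and 434 CPM, a difference whose sign TMM scaling turned.

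These moderate differences are averages over unlike cells. In the 41 marker-holding cells 14 of the 20 resting and homing genes were at least 2-fold lower than in the Foxp3-zero cells with an interval below 1. In the 31 marker-free cells the count was 0 of 20, with none higher. Counted the same way over all genes with a UMI, 5.88% were higher and 2.64% lower in the marker-holding cells, and 1.05% and 0.42% in the marker-free cells. Among all genes compared, the marker-holding cells had 167 of 2467 at least 2-fold higher (6.77%) and 153 lower (6.2%). The marker-free cells had 4 of 1471 higher (0.272%) and 13 lower (0.884%).

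Ccr7 illustrates the split. It stood at 113 CPM in the marker-holding cells, with 10 UMIs in 7 of the 41, and at 838 CPM in the Foxp3-zero cells, 7.41-fold apart (4.03 to 15.4). In the marker-free cells it stood at 1250 CPM, in 23 of the 31. After thinning, 9.76% of marker-holding, 67.7% of marker-free and 53.6% of Foxp3-zero cells held a Ccr7 UMI. In the marker-holding, marker-free and Foxp3-zero cells, Tcf7 stood at 170, 1250 and 1259 CPM. Satb1, a chromatin organizer of naive T cells, stood at 215, 1902 and 1699 CPM. Dapl1, a gene of naive T cells, stood at 124, 1160 and 1224 CPM.

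Not every gene of the resting and homing list was at least 2-fold lower in the marker-holding cells. Klf2 stood at 1210 CPM there and 2359 CPM in the Foxp3-zero cells, 1.95-fold lower (1.61 to 2.38). Il7r stood at 690 and 596 CPM, with an interval of the ratio that included 1. Bcl2, the survival factor, and Cd27, a costimulatory receptor, were likewise among the 6 that were not at least 2-fold lower.

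The marker-free cells lacked nearly all Treg transcripts. Of the 24 signature genes 15 were at 0 UMIs, Il2ra and Ikzf2 among them by definition, and none of the 24 was at least 2-fold higher or lower with an interval beyond 1. Ctla4, Il2rb, Lrrc32, Nrp1, Itgae, Klrg1, Gzmb, Penk and Nt5e were at 0 UMIs in 55194. Tnfrsf18 stood at 127 CPM in these cells and 124 CPM in the Foxp3-zero cells. For Ctla4 the upper limit of its interval is 66.8 CPM, below the 452 CPM of the marker-holding cells, so depth does not limit that comparison. Whether the single Foxp3 UMI of these 31 cells came from their own expression or from free RNA was not tested.

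**Figure D3:**
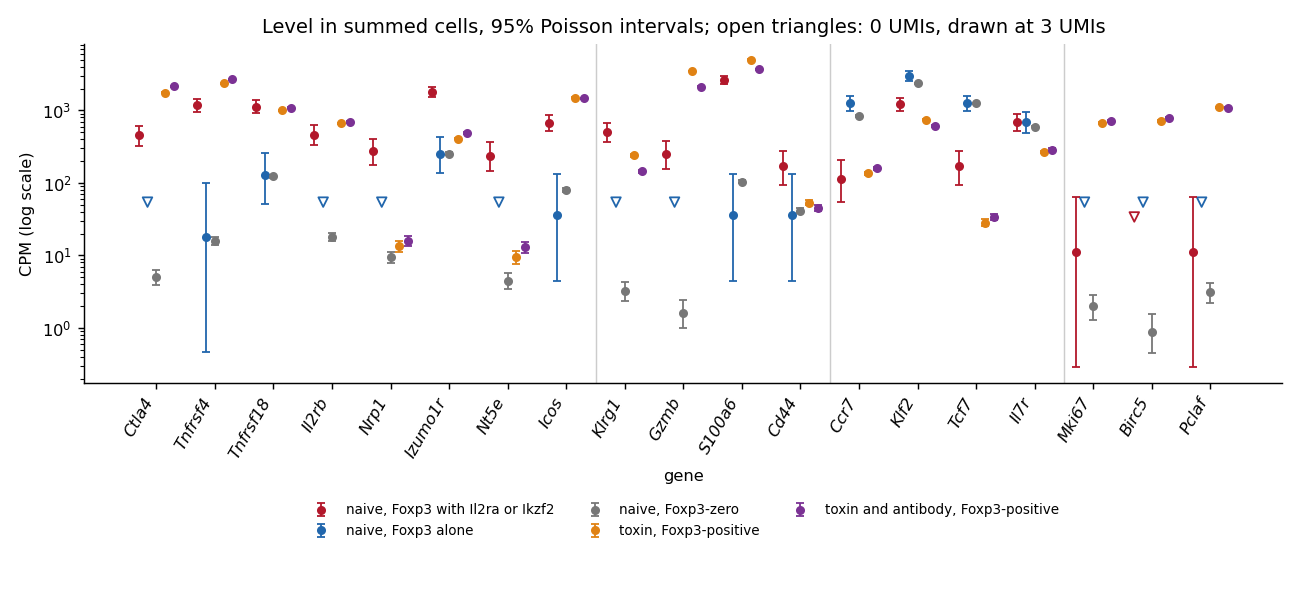
Levels (CPM, log axis) of named genes in the marker-holding, marker-free and Foxp3-zero naive cells and in the Foxp3-positive cells of both toxin libraries, with exact 95% Poisson intervals, and open triangles for genes at 0 UMIs, drawn at the level of 3 UMIs. Ccr7 and Tcf7 are low and Klrg1 and Ctla4 high in the marker-holding cells, while the marker-free cells lie near the Foxp3-zero cells.

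Effector genes were spread unevenly over the 41 marker-holding cells. Ikzf2 was seen in 38, Izumo1r in 39, Tnfrsf18 in 35, Capg in 32, Tnfrsf4 in 30, Maf in 30, Icos in 27, Il2rb in 24 and Ctla4 in 20. The 14 cells with Klrg1 included 0 with Tcf7 and 0 with Ccr7, whereas the 27 without Klrg1 included 11 with Tcf7 and 7 with Ccr7. Klf2 was seen in 2 of the 14 and in 18 of the 27. All 14 held Maf, against 16 of the 27. The median depths of these cells were 1951.5 and 2157 UMIs.

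Tissue-homing and cytotoxic genes were seen together in some of the marker-holding cells. S100a6 was seen in 12 of the 14 cells with Klrg1 and in 16 of the 27 without. For S100a4 these counts were 9 and 11, for Ccr2 3 and 8, and for Gzmb 1 and 5. Of the 6 cells with Gzmb, 5 held Ccr2, 6 held S100a6, 6 held S100a4 (another calcium-binding protein of effector cells) and 1 held Klrg1. All 11 cells with Ccr2 held S100a6 and 0 held Tcf7. Of the 4 cells with Penk, 3 held Klrg1, 0 held Gzmb and 0 held Ccr2. Conversely, of the 7 cells with Ccr7, 5 also held Tcf7, 0 held Klrg1 and 1 held S100a4. The counts per group are small and were read after the cells had been seen, so they describe these cells only.

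Few listed cell cycle genes differed by this measure between the 72 cells and the Foxp3-zero cells. Mki67, the proliferation antigen Ki-67, had 1 UMI in 1 of the 72 cells, and after thinning 0 of 72 cells held one, which by the floor of 3 counts allows a share of cells with a UMI at that depth of up to 4.17%. Only 6 of 24 listed S phase genes and 3 of 28 G2/M genes passed the count filter, so most had too few UMIs for a narrow interval. Against Foxp3-zero cells 0 of the 24 S phase genes differed by 2-fold or more with an interval beyond 1. Of the 28 G2/M genes 2 were higher, beside 4.43% of all genes counted the same way, and 12 were at 0 UMIs. The higher ones were Top2a, a topoisomerase of dividing cells, with 7 UMIs in 7 cells, all marker-holding (48.8 against 8.96 CPM), and Cks2, a subunit of cyclin-dependent kinases, with 6 UMIs in 6 cells (41.8 against 8.07 CPM). By 2 or more genes of the whole list 45 of the 72 cells were marked. The list includes Smc4, a condensin subunit, at 968 against 1019 CPM, and Hmgb2, a chromatin protein, at 508 against 335 CPM. By 2 or more genes of a narrower G2/M list, 4 of the 72 cells (5.56%), 3 of them marker-holding, and 0.748% of the Foxp3-zero cells were marked. Stmn1, a microtubule regulator of dividing and immature T cells, had 0 UMIs in the marker-holding cells and stood at 233 CPM in the Foxp3-zero cells (at least 6.88-fold lower, against the floor of 3 UMIs in the group). Of 17 genes induced through the T cell receptor 1 was higher and 1 lower, beside 4.43% and 1.46% of all genes. The lower one was Egr1 (2.35-fold lower, 1.23 to 5.14), an immediate early factor.

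Most markers of other cell types had no UMI in the 72 cells. Of 15 B cell markers 14 were at 0 UMIs, as were 7 of 7 NK cell markers, 5 of 5 listed dendritic cell markers and 7 of 9 listed myeloid markers. The summed levels in the 72 cells and the Foxp3-zero cells were 27.9 and 75.5 CPM for B cells, 0 and 91.4 for NK cells and 188 and 277 for myeloid cells. Of the 188 CPM, 181 were Cst3, a protease inhibitor gene, which stood at 176 CPM in the Foxp3-zero cells, and the macrophage gene Lyz2 stood at 0 and 76.4 CPM. None of the 72 cells held 2 or more markers of other cell types, against 135 of the 7883 Foxp3-zero cells. Cd8a had 0 UMIs, but it stood at 3.52 CPM in the Foxp3-zero cells, below the 6.96 CPM of 1 UMI in the 72 cells. Cd8b1, another CD8 gene, had 6 UMIs in the 72 cells (41.8 against 126 CPM, 3.02-fold lower, 1.38 to 8.23). Genes of other cell types that were higher in the 72 cells were Igkc, an immunoglobulin light chain gene (9 UMIs in 6 cells, 62.7 against 26.9 CPM), and the gamma receptor chain genes Tcrg-C4 (10 UMIs in 2 cells) and Tcrg-C2 (4 UMIs in 2 cells). Ighm, an immunoglobulin heavy chain gene, stood at 1072 against 692 CPM and was seen in 59 of the 72 cells. The sums were 1135 and 725 CPM for plasma cell genes and 174 and 575 CPM for gamma-delta and NKT cell genes, and their part in the results was not tested.

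Transcripts of the variable genes that the transgenic receptor uses were present in the 72 cells. SMARTA cells use Trbv13-1 (V beta 8.3) and Trav14d-3-dv8 (V alpha 2) as receptor variable genes. A UMI of either was seen in 22 of the 72 cells (30.6%) and in 34.4% of the Foxp3-zero cells, and after thinning in 16.7% and 22.2%. In the 20 cells with 2 or more Foxp3 UMIs the thinned share was 5%. All 18 UMIs of the 4 listed beta variable genes in the 72 cells were of Trbv13-1 (interval 81.5% to 100%), as were 2306 of 2308 in the Foxp3-zero cells. Other beta variable genes are not among the genes listed, so these shares cannot show how many cells used one of them. Trbv13-1 shares 2.2% of its 31-base words with other beta variable genes, so reads of it are rarely ambiguous, whereas Trav14d-3-dv8 shares 65.0% with other alpha variable genes. Of the 27 UMIs of the 33 listed alpha variable genes in the 72 cells 11 were of Trav14d-3-dv8 (40.7%), against 44.1% in the Foxp3-zero cells. Within the marker-holding cells Trbv13-1 was seen in 11 of 41, with 1 among the 14 Klrg1 cells, 0 among the 11 Ccr2 cells and 9 of the 21 cells without S100a4.

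Trdc was the lowest of all genes in the 72 cells by its interval. It encodes the constant region of the delta receptor chain and lies inside the alpha locus (chr14:54142851-54148868 on GRCm38 in GENCODE M21, upstream of Trac at 54220521 to 54224206). It stood at 62.7 CPM in the 72 cells and 559 CPM in the Foxp3-zero cells (8.92-fold lower, 4.70 to 19.5). In the marker-holding cells it stood at 22.6 CPM from 2 UMIs, and in the marker-free cells at 127 CPM. After thinning, 1 of 41 marker-holding cells held Trdc (2.44%), 5 of 31 marker-free cells (16.1%) and 28.1% of the Foxp3-zero cells. In the toxin library it was seen, thinned, in 1.10% of Foxp3-positive and 13.3% of Foxp3-zero cells, and in the toxin plus antibody library in 1.68% and 12.6%.

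**Figure D4:**
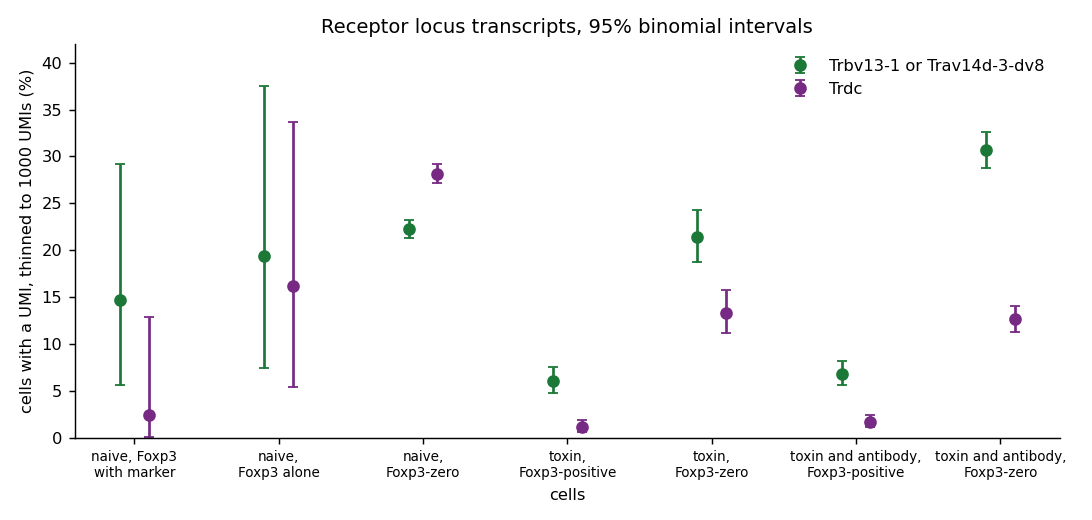
Share of cells (percent, y axis) with a UMI of a SMARTA receptor variable gene and with a UMI of Trdc after thinning to 1000 UMIs, by group of cells, with exact 95% Clopper-Pearson intervals as bars. Trdc is present in 28.1% of Foxp3-zero naive cells and in 2.44% of marker-holding cells, while the receptor share is 14.6% in the marker-holding and 22.2% in the Foxp3-zero naive cells.

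Foxp3-positive cells of the toxin libraries held Treg signature genes together with cell cycle and granzyme transcripts that were rare in the 72 naive cells. Both comparisons use the 72 naive cells, so they are not independent, and their values are given side by side, the toxin library first. Of 3638 and 3658 genes compared, 508 (14%) and 502 (13.7%) were at least 2-fold higher in the toxin cells, and 800 (22%) and 777 (21.2%) lower by as much. TMM scaling moved every log2 ratio by 0.48 and 0.45. Over the same genes it gave 935 higher and 435 lower, and 898 higher and 442 lower. Calls near 2-fold therefore depend on the scaling, and ratios below are read beside the medians over all genes, -0.14 and -0.17 on the log2 scale.

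Nearly all listed cell cycle genes were higher. In each toxin comparison 23 of 24 S phase genes were higher by 2-fold or more with an interval above 1, and so were 27 of 28 G2/M genes, beside 6.32% and 6.46% of all genes counted the same way. Of the latter 12 had no UMI in the 72 naive cells. Mki67 stood at 668 and 713 CPM against 6.96 CPM from 1 UMI, a ratio of 95.9 (17.2 to 3787) and 102 (18.4 to 4043). Birc5, the mitotic inhibitor of apoptosis survivin, stood at 715 and 795 CPM against 0, at least 34.2-fold and 38-fold higher over the floor of 3 UMIs in the group. Pclaf, which binds the replication clamp PCNA, stood at 1112 and 1083 CPM against 1 UMI. After thinning, Mki67 was seen in 27.7% and 32.3% of the toxin cells and in 0 of the 72 naive cells. Glycolysis genes followed, with 8 of 15 higher in each, Tpi1 (triosephosphate isomerase) 6.78-fold (4.34 to 11.3) and 6.23-fold (3.99 to 10.4).

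Treg signature genes differed between the naive and the toxin cells in both directions. Of the 24, 9 were at least 2-fold higher in each toxin comparison and 8 and 6 lower, with intervals beyond 1. Ctla4 stood at 1758 and 2143 CPM against 279 CPM (6.31-fold, 4.63 to 8.83, and 7.69-fold, 5.65 to 10.8). Il2ra was 3.50-fold (2.48 to 5.12) and 3.87-fold (2.74 to 5.67) higher and Tnfrsf4 3.23-fold (2.67 to 3.95) and 3.65-fold (3.02 to 4.47). Tnfrsf18 differed by less than 2-fold, at 1001 and 1092 against 745 CPM, and so did Ikzf2, at 1110 and 1272 against 1887 CPM. Nrp1 stood at 13.3 and 15.7 CPM against 167 CPM, 12.5-fold (7.79 to 19.4) and 10.7-fold (6.65 to 16.4) lower. Nt5e was 15.5-fold (9.21 to 24.9) and 11.3-fold (6.75 to 17.9) lower, and Izumo1r 2.94-fold (2.51 to 3.42) and 2.49-fold (2.13 to 2.90) lower. Against the marker-holding cells alone the higher genes differed less. Ctla4 was 3.88-fold and 4.74-fold higher, Il2ra 2.15-fold and 2.38-fold, and Tnfrsf4 2.01-fold and 2.27-fold. Tnfrsf18 stood at 1131 CPM there, and the intervals of its ratios included 1. The lower genes differed more, with Ikzf2 2.76-fold and 2.41-fold, Nrp1 20.4-fold and 17.3-fold, and Izumo1r 4.39-fold and 3.72-fold lower. Leaving out cells that held 2 G2/M genes kept 27 of the 72 naive cells and 61 of 1284 and 102 of 1649 toxin cells. Among these the direction turned for Nrp1 (log2 0.69 and 1.93) and Izumo1r (log2 0.54 and 0.65). The narrower list removed 4 naive cells and 882 and 1136 toxin cells. Without these the log2 ratios were -3.50 and -2.44 for Nrp1 and -0.56 and -0.26 for Izumo1r. Foxp3, on which all these cells were selected, stood at 541 and 560 against 787 CPM.

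Gzmb and Ifitm3 had large ratios outside the cell cycle. Gzmb stood at 3514 and 2120 CPM against 153 CPM (22.9-fold, 15.1 to 36.6, and 13.8-fold, 9.14 to 22.1), and was seen in 1172 of 1284 and 1347 of 1649 toxin cells. Ifitm3, which encodes a membrane protein that restricts virus entry, stood at 994 and 368 CPM against 0, at least 47.6-fold and 17.6-fold higher. Of 19 listed interferon genes 2 and 1 were at least 2-fold higher with an interval above 1, and 5 and 7 lower, beside 6.32% and 6.46% of all genes higher and 17.4% and 16.5% lower by this measure. Ifit1, an antiviral RNA-binding protein, was 4.16-fold (2.48 to 6.60) and 5.70-fold (3.37 to 9.10) lower. Fabp5, a fatty acid carrier, had 3 UMIs in the naive cells and a ratio of 41.7 (14.3 to 202) and 47.0 (16.1 to 228). Klrg1, by contrast, stood at 239 and 144 against 306 CPM. Its ratio was 1.28-fold lower with an interval that included 1 in the toxin library, where TMM scaling reverses the direction, and 2.13-fold lower (1.54 to 2.87) in the other. Without cells that held 2 G2/M genes, which leaves 27 naive cells and 61 and 102 toxin cells, it turned to log2 1.16 and 1.32. Without cells that held 2 genes of the narrower list it was 0.77 and -0.19.

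Markers of other cell types, receptor genes and depth moved with these comparisons. The toxin cells were deeper, at medians of 6611.5 and 4599 UMIs, and 490 of 1284 and 378 of 1649 held 2 or more markers of other cell types, against 0 of 72. Summed levels were 102 and 53.2 against 27.9 CPM for B cell markers, and Igkc, an immunoglobulin light chain gene, stood at 498 and 469 against 62.7 CPM. Of 15 B cell markers 3 were at 0 in each toxin group and 14 in the naive cells. These counts at 0 cannot be compared between groups. A UMI is worth 6.96 CPM in the naive cells but 0.0883 and 0.0955 CPM in the toxin cells. Without cells that held 2 such markers, the toxin comparison gave 508 genes higher and 779 lower, and the other 491 and 757. Trbv13-1 stood at 39.4 and 43.2 against 125 CPM. It made up 86.1% and 92.1% of the UMIs of the 4 listed beta variable genes in the toxin cells, against 100% of 18 in the naive cells. The part of depth and of receptor use in the differences was not tested.

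Most resting and homing genes were lower in the toxin cells. Against all 72 cells, 18 of 20 were at least 2-fold lower in each comparison with an interval below 1, and against the 41 marker-holding cells 14 and 13 of 20, beside 14.3% and 13.4% of all genes. Tcf7 stood at 28.3 and 34.1 against 585 CPM and Bcl2 at 21.9 and 21.5 against 453 CPM. Ccr7 stood at 135 and 158 against 550 CPM. Against the 41 marker-holding cells alone, with 113 CPM of Ccr7, its log2 ratio turned to 0.25 and 0.49, with intervals that included 0. Bcl2 was low against either group, at 430 CPM in the marker-holding cells (19.6-fold, 13.6 to 27.7, and 20-fold, 13.8 to 28.3, lower in the toxin cells). Itga4, the integrin alpha-4 chain and a gene of the memory list, stood at 656 CPM there (44.0-fold, 32.1 to 59.6, and 19.6-fold, 14.6 to 26.0, lower).

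**Figure D5:**
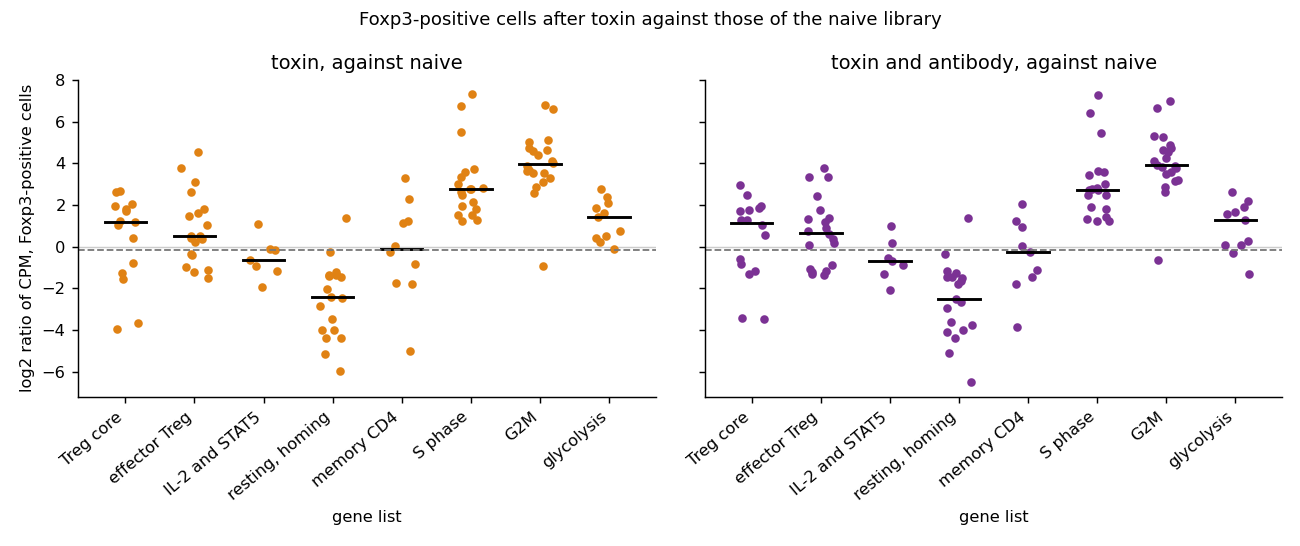
Log2 ratios of CPM for the listed genes that passed the count filter, by gene list (points are genes, black bars list medians, and the dashed line the median over all genes compared), for the Foxp3-positive cells of the toxin library (left) and the toxin plus antibody library (right) against the 72 naive cells. S phase genes lie above 0 with a median of 2.76 in the toxin library, G2/M genes do so with 1 exception and a median of 3.94, and most resting genes lie below 0, with a median of -2.41.

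Against the marker-holding cells, effector genes of the toxin cells were higher in some cases and lower in others. Of 2325 and 2337 genes compared, 356 (15.3%) and 369 (15.8%) were at least 2-fold higher in the toxin cells and 483 (20.8%) and 472 (20.2%) lower. Of the 30 effector genes, 6 were at least 2-fold higher in each with an interval above 1, and 7 and 8 lower. Counted the same way, 5.21% and 5.38% of all genes were higher and 14.3% and 13.4% lower. Gzmb was 14.1-fold (9.32 to 22.5) and 8.52-fold (5.63 to 13.6) higher, Icos 2.21-fold (1.71 to 2.90) and 2.16-fold (1.68 to 2.83), and Lgals1 (galectin-1) 4.22-fold (3.57 to 5.02) and 3.72-fold (3.15 to 4.43). Klrg1 was 2.08-fold (1.51 to 2.80) and 3.46-fold (2.50 to 4.67) lower and Ccr2 2.11-fold (1.53 to 2.85) and 3.03-fold (2.19 to 4.08) lower. Rora, a nuclear receptor of tissue Tregs, was 4.43-fold (2.79 to 6.71) and 3.88-fold (2.44 to 5.86) lower, and Gata3, a factor of the same cells, 2.55-fold (1.84 to 3.45) and 3-fold (2.16 to 4.06) lower. Maf and Tnfrsf18 differed by less than 2-fold. Of the S phase genes 22 of 24 were higher in each, and of the G2/M genes 25 and 26 of 28.

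The Foxp3-positive cells were last set against the Foxp3-zero cells within each library, where both groups share organ, tumor and library. Of the 138 genes at least 2-fold higher in the naive Foxp3-positive cells, 32 (23.2%) were also at least 2-fold higher in the toxin library (7.13% of its 449) and 32 in the toxin plus antibody library (3.75% of its 853). Genes at least 2-fold higher made up 4.24% and 7.72% of all genes compared there. Another 10 and 14 of the 138 (7.25% and 10.1%) were at least 2-fold lower, beside 11.6% and 20.6% of all genes compared there. In both toxin libraries 23 were higher, among them Ctla4, Icos, Il2ra, Il2rb, Tnfrsf4, Tnfrsf9, Tnfrsf18, Capg, Pim1, Klrg1, Ccr2 and Gzmb. The Foxp3-zero cells of the toxin libraries are an imperfect reference, since 59.6% and 72.8% of them held Il2ra or Ikzf2 against 5.57% in the naive library.

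The ratios of Ctla4, Klrg1 and Ikzf2 within a library were smaller in the toxin libraries than in the naive library. Ctla4 was 55.8-fold higher in Foxp3-positive than in Foxp3-zero cells in the naive library, 6.79-fold (6.41 to 7.19) in the toxin library and 5.41-fold (5.19 to 5.64) in the toxin plus antibody library. Klrg1 was 94.9-fold, 10.8-fold (8.88 to 13.2) and 8.21-fold (6.77 to 10.0) higher. Ikzf2 was 29.0-fold, 2.36-fold (2.26 to 2.47) and 1.02-fold (0.989 to 1.04) higher. For Nrp1 the direction turned, from 17.8-fold higher in the naive library to 4.31-fold and 3.13-fold lower. The integrin gene Itgb1 did the same, from 3.16-fold higher (2.30 to 4.24) to 4.38-fold and 2.38-fold lower. Trdc was lower in Foxp3-positive cells in all 3 libraries, by 8.92-fold, 9.04-fold and 9.95-fold.

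The working label of resting cells goes with the single Mki67 UMI, while Top2a, Cks2 and the share of cells marked by the narrower G2/M list were higher than in Foxp3-zero cells. The homing genes go against it in the 41 marker-holding cells, with low Ccr7, Tcf7 and Satb1 and with Klrg1 in 14 cells, so the cells are called here by the Foxp3 rule that chose them.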

How the data were processed

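Per the file headers and values, the authors deposited 1 table per library of whole-number UMI counts per gene and cell, with 11924 genes in each; genes not listed there were not analysed here. The submitters' processing notes name bcl2fastq 2.20, Cell Ranger 6.0.0, the mm10 build, R 4.1.1 and Seurat 4.0.4, without their settings. The naive table holds no cell above 3664 UMIs, and the filter behind this is not given in the sources used here. No further cell filter and no doublet caller was applied, and leaving out cells with 2 or more markers of another type was tried instead. No clustering was done.

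Cells were grouped by Foxp3 UMIs, counts were summed per group and scaled by the group's total to CPM, and ratios were given exact conditional binomial intervals with Python 3.11.15 and scipy 1.17.1. Gene counts used genes with an expected 10 UMIs or more in the smaller group, and a ratio of at least 2. Against 0 UMIs a fold was computed from the floor of 3 UMIs. TMM factors came from edgeR 4.0.16 in R 4.3.3, and no count model was fitted, since each group is 1 library. The ratios and intervals were tested on simulated data. Coordinates and names are from GENCODE M21 (GRCm38), which held 11809 of the listed names, and promoters from RefSeq (GRCm38.p6).

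The members, the 23 gene lists and the comparisons were chosen with earlier results of these data known. The text names, for each comparison, the 12 genes highest and the 12 lowest by the interval bound nearest to 1 as far as their role is known, the list members with the largest ratios and a fixed set of Treg and T cell genes, 1 of which is not reported here. S100a4, Maf, Cxcr3, Bcl2, Dapl1, Lgals1, Itga4 and genes described cell by cell were added after their values were seen. Alternatives were 2 or more Foxp3 UMIs, a marker UMI as well, Foxp3-zero cells without Il2ra, cells of at least 1500 UMIs, leaving out the 3 deepest naive cells or cells with G2/M genes, other-type markers or the SMARTA receptor, TMM, means of single-cell CPM, other count minimums and other thinning. The narrower G2/M list and narrowing only the naive group were added after the data were seen.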

Additional observations from a re-analysis of the deposited data

How the results depend on the processing

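Gene counts at least 2-fold higher and then lower are given for the first comparison (the 72 naive cells against Foxp3-zero cells), the second (the toxin library against the 72 cells) and the third (the toxin plus antibody library against them). The main setting compared 3832, 3638 and 3658 genes. The number of genes compared differed by setting and is given after each count. With 2 or more Foxp3 UMIs the first gave 91 higher of 1184, the second 202 and 198 of 1114, the third 207 and 213 of 1120. A UMI of Il2ra or Ikzf2 was also required, in all groups or in the naive group alone. Lower genes then numbered 153 of 2467 in the first, 483 of 2326 (2325 with the naive group alone) in the second and 472 of 2337 in the third. TMM scaling, with the count filter on the scaled totals, gave 163 lower of 3996 in the first. It gave 1063 and 471 of 4076 in the second, and 1009 and 473 of 4060 in the third. An expected count of 5 gave 299 and 242 of 5904, then 1416 lower of 5703 and 1377 lower of 5713. A count of 20 gave 63 and 23 of 1982, 305 and 341 of 1892, and 307 and 341 of 1886. No minimum gave 1205 and 740 of 9659, 1125 and 3262 of 9755, and 1136 and 3126 of 9776. Sums thinned to the total of the smaller group gave 225 and 211 of 3912 in the first. Leaving out cells with 2 G2/M genes removed 45 of the 72 naive, 1223 of the 1284 toxin and 1547 of the 1649 toxin plus antibody cells. It gave 185 and 189 of 1227 in the second, then 169 and 171 of 1217 in the third. The narrower list removed 4, 882 and 1136 cells and gave 305 higher of 3387, then 297 and 494 of 3437. The share of the higher genes of the first comparison that were also higher within a toxin library was 34.9% for the toxin alone at an expected count of 20 and 13.3% with thinned sums, and 34.7% (TMM) and 12.9% (thinned sums) in the other.

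Among the 72 cells the thinned share with a receptor gene was 8.33% at 500 UMIs, 30.6% without thinning and 5% with 2 or more Foxp3 UMIs. The Il2ra share was 5.56% at 500 UMIs and 30% with 2 or more Foxp3 UMIs, and the Ikzf2 share 34.7% and 80%.

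Of 1443 values of 135 single-gene results under 12 settings, 969 stayed within the main interval. Another 462 left it without being counted as reversed, and 12 were counted as reversed. The 462 include values of Klrg1 in the toxin library, whose main interval included 1 and whose sign did change. Its log2 ratio went from -0.36 to 1.16 without cells with 2 G2/M genes and to 0.77 with the narrower list. Ccr7, lower in the toxin cells against all 72, turned to log2 0.11 with 2 or more Foxp3 UMIs (toxin plus antibody), 0.25 and 0.48 with the marker required in all groups, and 0.25 and 0.49 with it required in the naive cells. Without cells with 2 G2/M genes, log2 ratios turned to 0.69 and 1.93 for Nrp1 and 0.54 and 0.65 for Izumo1r in the toxin and the toxin plus antibody library. Under the same setting Cd4 turned to 0.017 in the former, and Il7r to 0.19 and Klrg1 to 1.32 in the latter. That setting keeps 27 naive, 61 toxin and 102 toxin plus antibody cells. The cause of the other moves was not tested. No paired analysis was possible because each group is 1 library. The 143591 UMIs of the 72 cells limit what can be seen: a gene below 20.9 CPM rests on under 3 UMIs.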

Other observations

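Several lists outside the Treg, homing and cell cycle groups are counted here for the 72 naive cells against the Foxp3-zero cells, over all listed members and by a ratio of at least 2 with an interval beyond 1. By that measure 4.43% of all genes with a UMI were higher and 1.46% lower. Of 19 memory CD4 genes 7 were higher and 1 lower. Id2, an inhibitor of E-protein transcription factors, was 3.73-fold higher (2.77 to 4.92), and Ifngr1, a chain of the interferon gamma receptor, 2.68-fold (2.06 to 3.43). Of 14 survival genes 4 were higher and none lower, among them the BCL-2 family member Bcl2a1b (3.78-fold, 2.18 to 6.12). Of 13 genes of NF-kB and TNF receptor signalling 2 were higher and none lower, both adaptors: Traf1 (2.55-fold, 1.98 to 3.25) and Tank (2.67-fold, 1.82 to 3.79). None of 19 interferon genes and none of 12 dissociation stress genes was higher or lower by this measure.

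The few Foxp3-positive cells of the other tumor libraries gave these levels, with no comparison made. Klrg1 had 0 UMIs in the 16 cells of the untreated tumor library and 0 in the 54 of the antibody library. Ctla4 stood at 272 CPM in the former and 401 CPM in the latter, and Ikzf2 at 1289 and 697 CPM.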
